A study of Mus musculus with 12 samples.

Results

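The 10 genes described here are those that tie the long noncoding RNA EPR to its earlier known partners, namely Khsrp, Cdkn1a, the TGF-β and SMAD genes Tgfb1, Tgfbr1, Tgfbr2, Smad2, Smad3, Smad4 and Smad7, and Vim. They were chosen by name, from the protein that EPR is known to bind and the pathway and target it is known to affect in mammary gland cells. Their values here did not enter the choice, although earlier results of these data were known when it was made. They are 10 of the 55376 genes listed in the count table, and all 10 were among the 15952 genes tested. RNA-Seq of the whole proximal colon compared 6 EPR fl/fl mice with 6 EPR cKO mice, all 12 weeks old. In EPR fl/fl mice loxP sites flank the promoter and first exon of EPR, there is no Cre recombinase, and they served as controls. EPR cKO mice carry the same floxed allele together with the CDX2P-NLS Cre transgene, in which a human CDX2 promoter drives Cre in epithelial cells from the distal ileum through the cecum to the colon. Both groups are on a background bred with C57BL/6. Each library holds RNA of epithelium, muscle, stroma, vessels, nerves and immune cells together, so that fewer cells of a type and less RNA per cell cannot be told apart in any value below.

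KHSRP is an RNA-binding protein that takes part in the decay of mRNAs with AU-rich elements and in the maturation of some microRNAs. TGF-β is stored outside the cell in a latent form, and once freed it joins a type II receptor (TGFBR2) to a type I receptor (TGFBR1), which phosphorylates SMAD2 and SMAD3. These bind SMAD4, enter the nucleus and control genes that include Smad7, the inhibitor that closes the loop, and Cdkn1a, which encodes the cyclin-dependent kinase inhibitor p21. In epithelia the pathway can drive epithelial-to-mesenchymal transition (EMT), in which epithelial junction proteins are lost and mesenchymal proteins such as vimentin, the product of Vim, are gained. In the gut wall vimentin is a protein of fibroblasts, endothelium and other stromal cells.

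Libraries held between 13093904 and 33211041 counts. EPR itself, listed as Smim31, was all but gone from the EPR cKO libraries, whose highest value was 0.424 CPM (edgeR's library-scaled counts, with TMM factors applied to the library totals), against a lowest value of 21.3 CPM in EPR fl/fl. The epithelial markers were present in every library, with a mean log2 CPM of 8.96 to 9.40 in controls and 9.08 to 9.65 in EPR cKO. EPR cKO replicate 1 stood apart from the other libraries of its group in the tissue it held. It had the highest score of the group for fibroblast (7.57), smooth muscle (9.39) and endothelial markers and the lowest for epithelial markers, so values without it are given where it moved a call or a count of calls. EPR cKO replicates 2 to 6 differed from controls in the other direction. Their epithelial minus smooth muscle score was 1.70 to 3.17, against 0.67 to 1.33 in controls. Without replicate 1 the group difference in this score was 1.62 (exact permutation p = 0.00216), against 1.15 with it. Fits without it thus compare groups less alike in tissue. The goblet cell markers lay at 9.28 to 9.75 in controls and at 8.33 to 8.73 in EPR cKO, with no overlap.

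The comparison asked which of the 10 genes differed in level between EPR cKO and EPR fl/fl colon. Only Smad7 passed an adjusted p of 0.05 (edgeR quasi-likelihood test, Benjamini-Hochberg over all 15952 genes tested), and it was higher in EPR cKO. That is 1 of 10 genes, where 2.46% of all tested genes passed, 0.884% as higher and 1.57% as lower. At an unadjusted p under 0.05, 5 of the 10 genes passed, Smad7, Cdkn1a, Khsrp, Smad2 and Smad3, all of them higher in EPR cKO, beside 18.3% of all tested genes in either direction and 11.1% as higher. In 0 of the 10 genes did the 6 libraries of 1 group lie wholly above the other 6, as they did in 2.47% of tested genes. The log2 fold change (EPR cKO minus EPR fl/fl) was above 0 in 7 of the 10 genes and below 0 in 3, with a median of 0.13, against 0.02 over all tested genes.

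**Figure D1:**
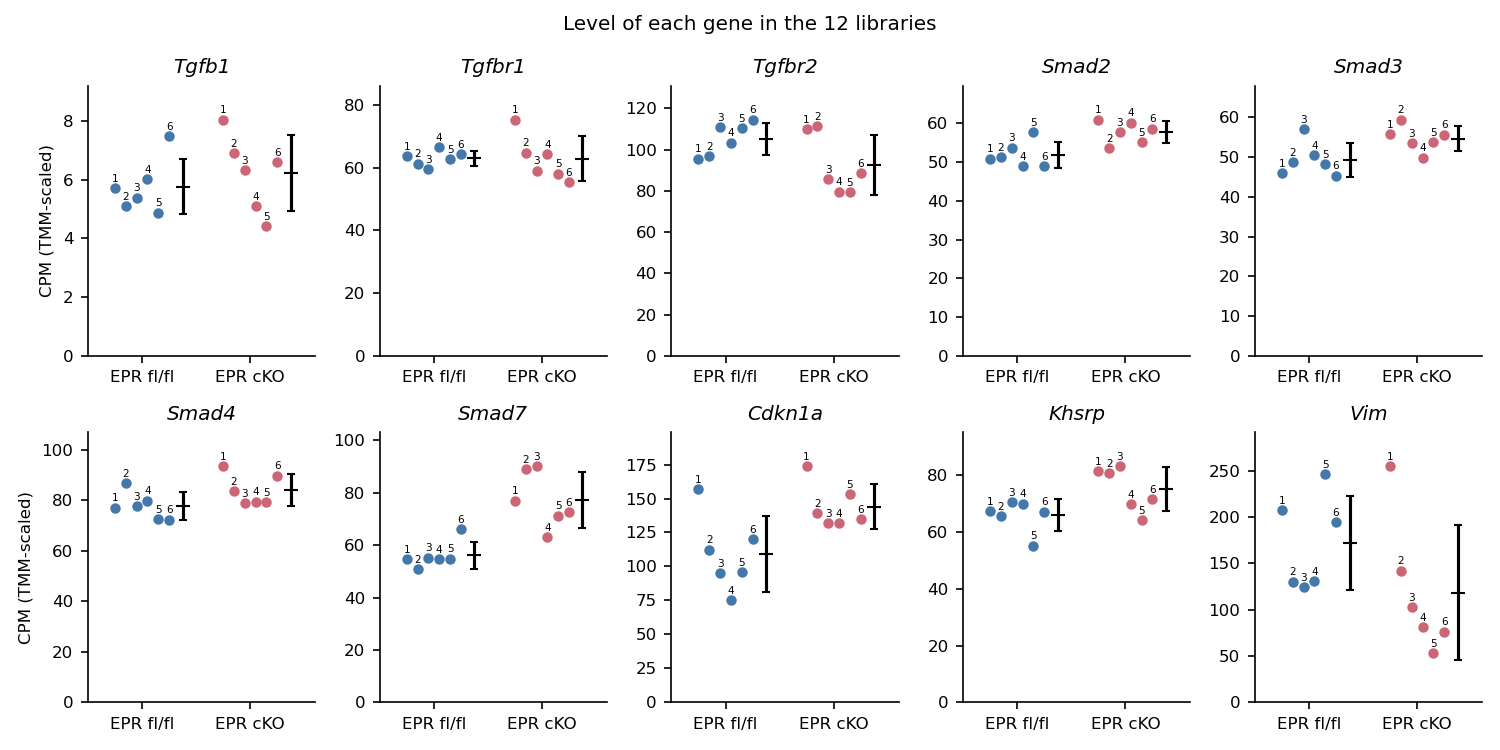
Level of each of the 10 genes in CPM (vertical axis, starting at 0) in the 6 EPR fl/fl (blue) and 6 EPR cKO (red) libraries, with the replicate number at each point and the group mean ± SD as a black bar. For Smad7, 5 of 6 EPR cKO libraries lie above the highest EPR fl/fl library, and for Vim EPR cKO replicate 1 at 255 CPM lies above the other EPR cKO libraries, which reach 142 CPM.

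Smad7, the inhibitory SMAD that blocks the type I receptor and recruits ubiquitin ligases to it, rose in EPR cKO. The gene lies at chr18:75367529-75395935 on the plus strand (mm10). Its lowest, median and highest levels were 50.9, 54.7 and 66.2 CPM in controls and 63.1, 74.8 and 90.0 CPM in EPR cKO. Thus 5 of 6 EPR cKO libraries lay above every EPR fl/fl library, and the groups overlapped through the lowest EPR cKO library and the highest EPR fl/fl library. The means were 56.0 ± 5.22 and 77.1 ± 10.6 CPM (SD, n = 6), a 1.38-fold rise (95% interval 1.20 to 1.59). On the log2 scale the rise was 0.46 ± 0.09 (SE, adjusted p = 0.0222). It was 0.44 without EPR cKO replicate 1 (adjusted p = 0.00995) and, with a score of tissue composition, the epithelial minus the smooth muscle markers, as covariate, 0.53 (adjusted p = 0.0223). Relative to the epithelial markers alone the difference was 0.18 (exact permutation p = 0.160). Smad7 passed in 6 of 9 alternative analyses and not with total counts (adjusted p = 0.0642), without a filter on low counts (adjusted p = 0.0574) or with the replicate number as a block (adjusted p = 0.0733). The call also depended on single libraries, since the adjusted p lay between 0.0530 and 0.0637 in 6 of 12 fits on 11 libraries, those without EPR fl/fl replicate 1, 3, 4 or 5 or without EPR cKO replicate 2 or 3, while the log2 fold change stayed between 0.41 and 0.52 in all 12.

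The receptor-regulated SMADs, which carry the signal of TGF-β and activin receptors, did not pass. Smad2 (chr18:76241580-76310963, plus strand) had its lowest, median and highest levels at 48.9, 51.1 and 57.8 CPM in controls and at 53.6, 58.2 and 60.9 CPM in EPR cKO. All 6 EPR cKO libraries lay above the EPR fl/fl median, and 3 lay above its highest library. This gave a log2 difference of 0.15 ± 0.06 (SE, adjusted p = 0.200). Smad3 (chr9:63646767-63757994, minus strand) lay at 45.3, 48.4 and 57.0 CPM in controls and at 49.8, 54.7 and 59.4 CPM in EPR cKO, with a log2 fold change of 0.15 ± 0.07 (adjusted p = 0.271). Smad4 (chr18:73639009-73703780, minus strand), the partner that all activated SMADs share, lay at 72.4, 77.4 and 86.9 CPM and at 78.9, 81.6 and 93.5 CPM. Its log2 fold change was 0.11 ± 0.07, with a 95% interval of -0.03 to 0.26 (adjusted p = 0.381), and 0.06 without EPR cKO replicate 1. The upper limits of the 95% intervals of Smad2, Smad3 and Smad4 were 0.281, 0.295 and 0.255. That of Smad7 ran from 0.257 to 0.665 and so overlapped those of Smad2 and Smad3. Differences between the genes were not tested.

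Of the receptors, Tgfbr1 (chr4:47353222-47414931, plus strand), the type I kinase, had nearly equal means, 63.0 ± 2.41 CPM in controls and 62.9 ± 7.11 CPM in EPR cKO. The 95% interval of its log2 fold change was -0.16 to 0.15 (adjusted p = 0.982). Its EPR cKO libraries were more spread, from 55.5 to 75.3 CPM with replicate 1 highest, against 59.6 to 66.5 CPM in EPR fl/fl. Tgfbr2 (chr9:116084293-116175360, minus strand), the type II receptor that binds the ligand, lay at 95.7, 107 and 115 CPM in controls and at 79.5, 87.2 and 112 CPM in EPR cKO (lowest, median and highest). EPR cKO replicates 1 and 2 lay within the EPR fl/fl range, and the other 4 lay below its lowest library. On the log2 scale the difference was -0.19 ± 0.10 (SE, adjusted p = 0.330), -0.26 without EPR cKO replicate 1 (adjusted p = 0.0640) and -0.03 with the composition score as covariate (adjusted p = 0.913).

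The ligand gene Tgfb1 (chr7:25687002-25705077, plus strand) had the lowest level of the 10 genes. It lay at 4.88, 5.55 and 7.48 CPM in controls and at 4.43, 6.46 and 8.04 CPM in EPR cKO, so that the EPR cKO libraries spanned the whole EPR fl/fl range. Its log2 fold change was 0.11 ± 0.16 with a 95% interval of -0.24 to 0.46 (adjusted p = 0.727), and 0.01 without EPR cKO replicate 1. A library held 68 to 185 counts of Tgfb1, which limits its precision. In EPR fl/fl replicate 5, with 68 counts, the unscaled level was 5.19 CPM with a 95% Wilson interval of 4.10 to 6.58 CPM, which covers counting error only.

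**Figure D2:**
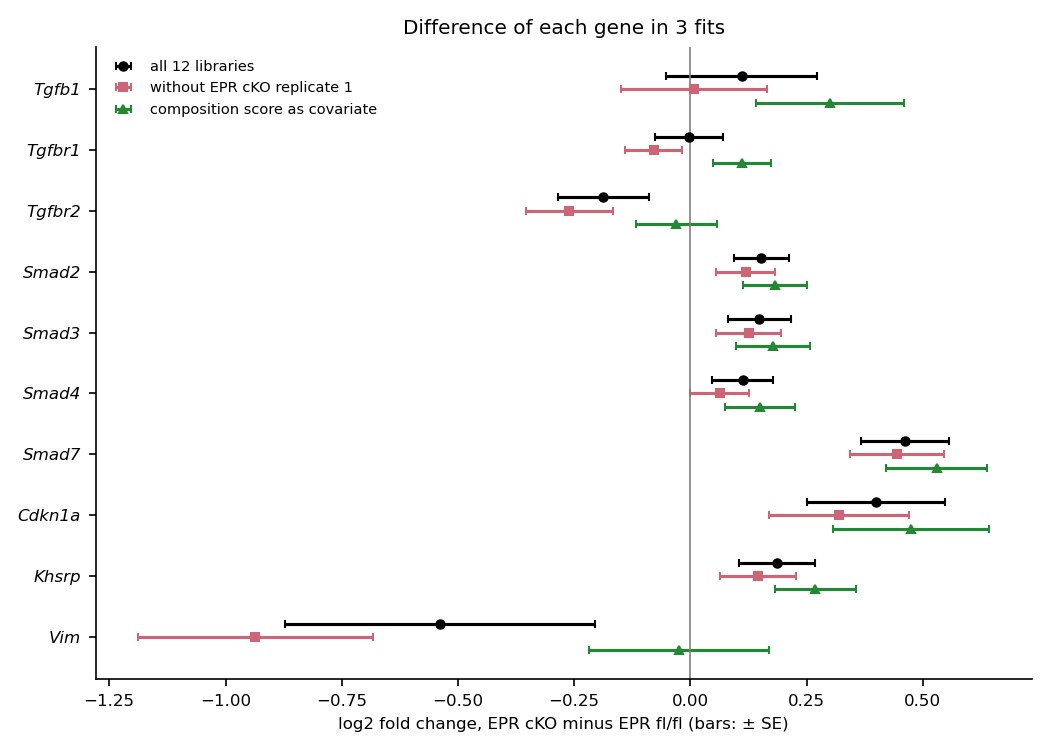
Log2 fold change, EPR cKO minus EPR fl/fl (horizontal axis, bars ± SE), of each of the 10 genes with all 12 libraries (black circles), without EPR cKO replicate 1 (red squares) and with the composition score as covariate (green triangles). Smad7 stays between 0.44 and 0.53 in the 3 fits, while Vim goes from -0.94 without the library to -0.02 with the covariate.

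Around these members, the other genes of the TGF-β family were described from fixed lists. The calls in each list stand beside 2.46% of all tested genes that passed. Of the ligands, 12 of 14 were tested, 4 with a positive and 8 with a negative log2 fold change (median -0.14), and 1 passed. That was Bmp3 (chr5:98854415-98884396), a bone morphogenetic protein, at 121 ± 36.1 CPM in controls and 71.6 ± 12.1 CPM in EPR cKO (SD, n = 6), where it fell by 0.76 ± 0.18 on the log2 scale (SE, adjusted p = 0.0479). All 6 EPR cKO libraries lay below the EPR fl/fl mean and 4 below its lowest library. Among the 12 fits on 11 libraries Bmp3 passed in 2, those without EPR fl/fl replicate 6 and without EPR cKO replicate 1, and had an adjusted p of up to 0.111 in the other 10. Over the 9 alternative analyses it passed in 6, and with the composition score as covariate its log2 fold change was -0.60 (adjusted p = 0.177).

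Of the 11 genes that store or activate TGF-β, 10 had a negative and 1 a positive log2 fold change (median -0.19). The positive one, Itgb6 (chr2:60598292-60722643), passed. It encodes the β6 subunit of an epithelial integrin that frees TGF-β from its latent complex. Itgb6 rose from 52.4 ± 8.96 to 77.7 ± 10.7 CPM, by 0.57 ± 0.12 on the log2 scale (SE, adjusted p = 0.0290), and all 6 EPR cKO libraries lay above all 6 EPR fl/fl libraries. It passed in 5 of the 12 fits without 1 library, and its adjusted p reached 0.0822 in the others, those without EPR fl/fl replicate 1, 3 or 4 or EPR cKO replicate 2, 3, 5 or 6. Over the 9 alternative analyses it passed in 7, and with the composition score as covariate the log2 fold change was 0.44 (adjusted p = 0.122).

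Of the other receptors, 10 of 11 were tested, 3 with a positive and 7 with a negative log2 fold change (median -0.13), and 1 passed. This was Bambi (chr18:3507923-3516404), a decoy receptor that lacks the kinase domain and, like Smad7, restrains TGF-β signalling and is one of its targets. Bambi fell from 7.11 ± 2.03 to 2.00 ± 0.475 CPM, by 1.84 ± 0.22 on the log2 scale (SE, adjusted p = 0.000604), with no overlap between the groups. It passed in each of the 9 other analyses and in all 12 fits without 1 library. Its log2 fold change was -1.62 with the composition score as covariate (adjusted p = 0.00425). Smad7 and Bambi, both inhibitors of the receptors, thus differed in opposite directions.

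None of the 17 other SMADs and SMAD regulators passed (9 positive, 8 negative, median log2 fold change 0.01). The smallest p was that of Smurf1, a ubiquitin ligase that SMAD7 brings to the receptor, at 37.8 ± 4.88 CPM in controls and 45.2 ± 1.79 CPM in EPR cKO, with a log2 fold change of 0.26 (adjusted p = 0.131) although the groups did not overlap. Smad9, a SMAD of the BMP branch, had a log2 fold change of -0.63 (adjusted p = 0.296). Its EPR cKO value was 6.66 CPM in replicate 1 and 1.44 to 2.93 CPM in the other 5 libraries. Without replicate 1 the log2 fold change of Smad9 was -1.06 (adjusted p = 0.00259). In that fit 2273 of all 15836 tested genes passed as lower. With the composition score as covariate the log2 fold change of Smad9 was -0.19 (adjusted p = 0.661).

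Of 15 known TGF-β target genes, 14 were tested, and 3 had a positive and 11 a negative log2 fold change (median -0.23), with 0 past the adjusted threshold. The immediate early genes Junb and Klf10 had the smallest p, with log2 fold changes of 0.57 (adjusted p = 0.107) and 0.47 (adjusted p = 0.131). Without EPR cKO replicate 1 they were 0.63 (adjusted p = 0.0175) and 0.48 (adjusted p = 0.0471). In that fit 2 genes of the list passed as higher and 5 as lower (list median -0.69), beside 1178 and 2273 of all 15836 tested genes. With the composition score as covariate Junb gave 0.41 (adjusted p = 0.345) and Klf10 0.43 (adjusted p = 0.267). Of the Junb exon sequence, 5.76% of 50-base stretches also occur in another annotated gene. Several of the target genes, such as Col1a1, Col3a1, Acta2 and Tagln, are also markers of fibroblasts or smooth muscle. The fibroblast score was 6.20 to 6.83 in controls and 4.80 to 7.57 in EPR cKO, and the smooth muscle score was 7.85 to 8.60 and 6.39 to 9.39. Under the covariate fit the target list had 10 positive and 4 negative values (median 0.07). Acta2 and Tagln are among the smooth muscle markers that make up the covariate, so this fit is not independent of the list. The part of tissue composition in these lists was not tested.

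**Figure D3:**
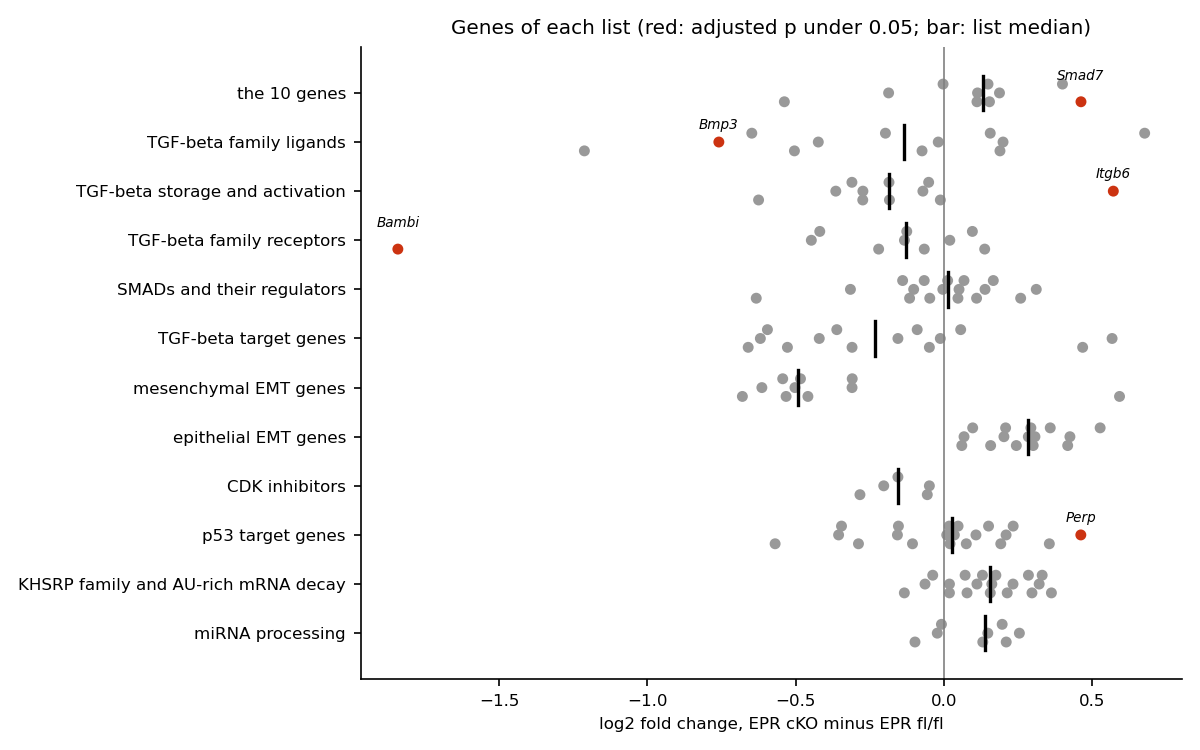
Log2 fold change, EPR cKO minus EPR fl/fl (horizontal axis), of each tested gene in the 10 genes and 11 related lists (rows). Genes with an adjusted p under 0.05 are red and named, and the black bar is the list median. Smad7, Itgb6 and Perp lie to the right, Bmp3 and Bambi to the left, and the mesenchymal and epithelial lists have medians of -0.49 and 0.28.

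Cdkn1a (chr17:29090979-29100727, plus strand) had a higher mean in EPR cKO that did not pass. Its lowest, median and highest levels were 75.2, 104 and 157 CPM in controls and 132, 137 and 174 CPM in EPR cKO. All 6 EPR cKO libraries lay above the EPR fl/fl median, but only replicate 1 lay above its highest library, and the controls were the more spread group (109 ± 28.1 against 144 ± 16.6 CPM, SD, n = 6). It gave a log2 fold change of 0.40 ± 0.15 (SE), with a 95% interval of 0.08 to 0.72 and an unadjusted p of 0.0184 (adjusted p = 0.184). Leaving out 1 library moved it between 0.31 and 0.52, with no fit past the threshold. Antisense exons of 1700023B13Rik cover 10% of the Cdkn1a exon sequence, and 8.49% of its 50-base stretches occur in another annotated gene, so that its counts are uncertain to that extent because the strand setting of the counting is not given in the sources used here.

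Cdkn1a is the textbook target of p53, and its promoter is shown because p53 is the other main route, beside TGF-β, to p21. RefSeq (GRCm38.p6) gives 2 start sites for the gene, and the window below holds the 250 bases before the first of them, read from 5′ to 3′ on the plus strand, with the 2 matches to the p53 half-site in capitals.
Cdkn1a, chr17:29090729-29090978: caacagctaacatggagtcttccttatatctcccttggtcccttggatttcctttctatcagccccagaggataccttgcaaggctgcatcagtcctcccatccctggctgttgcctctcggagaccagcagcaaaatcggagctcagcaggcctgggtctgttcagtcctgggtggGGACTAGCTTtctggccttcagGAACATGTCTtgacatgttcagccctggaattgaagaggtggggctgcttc
The matches are 12 bases apart. The stretch that directly follows the second match, tgacatgttc, departs from the half-site pattern in its first letter only and was not counted. Which of these stretches act together was not tested. A half-site on its own occurs in 7.13% of the 32851 windows of this length in the mouse table (both strands searched), and 2 of them within 13 bases of each other in 0.0639%. The window before the second start site held 0 matches. A match of letters is a description of the window and not of binding. Read counts per gene do not tell from which start site the transcripts came.

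Of 20 p53 target genes beside Cdkn1a, 13 had a positive and 7 a negative log2 fold change (median 0.03), and 1 passed, beside 2.46% of all tested genes. Without EPR cKO replicate 1 the list had 10 positive and 10 negative values, with 2 genes past the threshold as higher and 4 as lower. In that fit 1178 of all 15836 tested genes passed as higher and 2273 as lower. Perp (chr10:18845020-18857073), a p53 target that is also a membrane protein of desmosomes, rose from 210 ± 27.1 to 288 ± 30.1 CPM, by 0.46 ± 0.10 on the log2 scale (SE, adjusted p = 0.0280), with all 6 EPR cKO libraries above all 6 EPR fl/fl libraries. It passed in 3 of the 12 fits without 1 library (without EPR fl/fl replicate 2 or 6 or EPR cKO replicate 1), and had an adjusted p of up to 0.0953 in the others. Over the 9 alternative analyses Perp passed in 5, and with the composition score as covariate its log2 fold change was 0.34 (adjusted p = 0.119). All 5 of the tested CDK inhibitors beside Cdkn1a had a negative log2 fold change, with a median of -0.16, and 0 passed. The values with the smallest p were -0.28 for Cdkn2c (adjusted p = 0.302) and -0.20 for Cdkn2d, the genes of p18 and p19.

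Khsrp (chr17:57021051-57031522, minus strand) was present in every library of both groups. Its lowest, median and highest levels were 55.1, 67.2 and 70.4 CPM in controls and 64.0, 76.0 and 83.0 CPM in EPR cKO. Of the EPR cKO libraries, 4 lay above the highest EPR fl/fl library. The means of 65.9 ± 5.58 and 75.0 ± 7.74 CPM (SD, n = 6) gave a log2 fold change of 0.19 ± 0.08 (SE), with a 95% interval of 0.01 to 0.36 and an unadjusted p of 0.0397 (adjusted p = 0.249). As a ratio of EPR cKO to controls the interval runs from 1.01 to 1.29. KHSRP protein and its binding to RNA were not measured in these libraries.

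The other genes of AU-rich mRNA decay had small differences. Of 19 genes, 16 had a positive and 3 a negative log2 fold change (median 0.16), with 0 past the adjusted threshold. At an unadjusted p under 0.05, 7 of the 19 were higher, a larger share than the 11.1% of all tested genes. Without EPR cKO replicate 1, 2 genes of the list passed as higher, as did 1178 of all 15836 genes tested in that fit. Exosc3, a subunit of the RNA exosome, had the smallest p with a log2 fold change of 0.36 (adjusted p = 0.195). It was 0.41 without EPR cKO replicate 1 (adjusted p = 0.0392) and 0.17 with the composition score as covariate (adjusted p = 0.633). Tia1, an AU-rich element binding protein, had a log2 fold change of 0.23 (adjusted p = 0.208), and 7.85% of its exon sequence overlaps another gene on the same strand. Of the 8 genes that process microRNAs, 5 had a positive and 3 a negative log2 fold change (median 0.14), and 0 passed. Tarbp2, a Dicer partner, and Xpo5, the exporter of microRNA precursors, had the smallest p, with 0.25 (adjusted p = 0.215) and 0.20 (adjusted p = 0.230). Of the Tarbp2 exon sequence, 14.3% of 50-base stretches also occur in another annotated gene.

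Vim (chr2:13573952-13582826, plus strand) varied more between libraries than the other 9 genes. Its lowest, median and highest levels were 124, 163 and 246 CPM in controls and 53.4, 92.1 and 255 CPM in EPR cKO. Of the EPR cKO libraries, 4 lay below every EPR fl/fl library, replicate 2 lay within their range at 142 CPM, and replicate 1 lay above them all. Over all 12 libraries its log2 difference came to -0.54 ± 0.33 (SE, adjusted p = 0.405). Without EPR cKO replicate 1 it was -0.94 ± 0.25 (adjusted p = 0.0207), and Vim passed the threshold as lower in EPR cKO. With the composition score as covariate it was -0.02 ± 0.19 (adjusted p = 0.972). Replicate 1 was also the EPR cKO library with the highest level of Cdkn1a, Smad2, Smad4, Tgfb1 and Tgfbr1.

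The spread of Vim went with that of the fibroblast markers, a list of 10 genes that does not hold Vim. EPR cKO replicates 1 and 5, the highest and the lowest in Vim, were also the highest (7.57) and the lowest (4.80) in the fibroblast score. Within EPR cKO they were the highest and the lowest in the smooth muscle, endothelial, macrophage and adipocyte scores too, so this is not particular to fibroblasts. Relative to the fibroblast score, the log2 level of Vim was 0.81 ± 0.21 in controls and 0.74 ± 0.21 in EPR cKO (SD, n = 6), a difference of -0.06 (exact permutation p = 0.610). Relative to the epithelial markers the difference was -0.95 (exact permutation p = 0.0476, adjusted p = 0.225 over the 20 differences computed). Among these 20 differences, of each of the 10 genes from the epithelial and from the fibroblast score, 0 passed an adjusted p of 0.05 with all libraries, where the smallest adjusted p was 0.216, and 12 passed without EPR cKO replicate 1. Relative to the fibroblast score each of the 10 genes but Vim was higher in EPR cKO, by 0.42 (Tgfbr2) to 1.07 (Smad7). The mean of this score itself differed by -0.62, and such a difference is not particular to Smad7. Smad7 had an exact permutation p of 0.0281, and Cdkn1a, with a difference of 1.04, one of 0.0260 (adjusted p = 0.216 for both). The part of tissue composition in the difference in Vim was not tested.

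**Figure D4:**
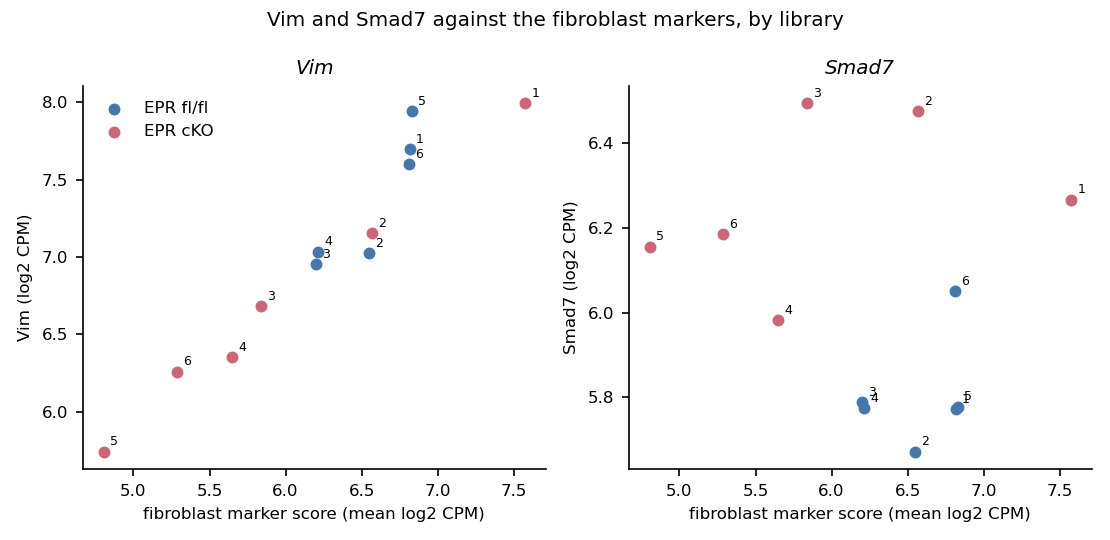
Level of Vim (left) and Smad7 (right) in log2 CPM (vertical axes) against the fibroblast marker score, the mean log2 CPM of 10 markers (horizontal axes), with 1 point per library, blue for EPR fl/fl and red for EPR cKO, and the replicate number beside it. The Vim points lie along 1 line from EPR cKO replicate 5 (score 4.80) to EPR cKO replicate 1 (score 7.57), while 5 of 6 EPR cKO libraries lie above all EPR fl/fl libraries in Smad7, from a score of 4.80 to 7.57.

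The mesenchymal and epithelial EMT genes lay on opposite sides of 0, and none of them passed the test over all libraries. Of 12 mesenchymal genes, 10 were tested, and 9 had a negative and 1 a positive log2 fold change (median -0.49). The positive one was Snai2, a transcription factor of EMT, with 1.19 ± 0.277 CPM in controls and 1.81 ± 0.770 CPM in EPR cKO (log2 fold change 0.59, adjusted p = 0.301), which was 0.38 without EPR cKO replicate 1 and 0.89 under the covariate fit. Cdh11, a cadherin of mesenchymal cells, had a log2 fold change of -0.68 (adjusted p = 0.345). Of the 15 epithelial genes, all had a positive log2 fold change (median 0.28), 7 of them with an unadjusted p under 0.05. Of all tested genes, 11.1% were higher at that unadjusted p. Dsp, the desmosome protein desmoplakin, was at 808 ± 84.8 CPM in controls and 995 ± 62.3 CPM in EPR cKO (log2 fold change 0.30, adjusted p = 0.0821), and Esrp2, an epithelial splicing regulator, had a log2 fold change of 0.31 (adjusted p = 0.111). Antisense genes cover 9.56% of the Esrp2 and a smaller share of the Dsp exon sequence. Without EPR cKO replicate 1, 8 of 10 mesenchymal genes passed as lower (median -1.04), Cdh11 among them (-1.12, adjusted p = 0.0145), and 6 of 15 epithelial genes passed as higher, Dsp and Esrp2 among them. Of all 15836 genes tested in that fit, 2273 passed as lower and 1178 as higher. With the composition score as covariate 0 genes of either list passed, and the medians were 0.06 and 0.12. Of the epithelial list, Cdh1, Epcam, Krt8, Krt18, Krt19, Cldn3 and Cldn7 are also epithelial markers of that score, so this fit is not independent of the list.

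Over the 11 lists together 138 of 145 genes were tested, 70 with a positive and 68 with a negative log2 fold change (median 0.01). Itgb6 and Perp passed as higher and Bmp3 and Bambi as lower. That is 4 of 138 genes, near the 2.46% of all tested genes that passed. Without EPR cKO replicate 1, when 1178 of all 15836 tested genes passed as higher and 2273 as lower, 13 list genes passed as higher and 30 as lower. The lower ones included 4 ligands, 4 storage and activation genes, 4 receptors, 2 SMADs or regulators and 5 TGF-β targets, lists with medians of -0.31, -0.73, -0.25, -0.07 and -0.69 in that fit. Under the covariate fit 0 list genes passed as higher and 1, Bambi, as lower.

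Scaled to exon length, the 10 genes spanned from Vim to Tgfb1 in EPR fl/fl, with 78.5 ± 23.2 and 2.65 ± 0.430 CPM per kb of exon (SD, n = 6). In order of the mean over all libraries Vim was followed by Cdkn1a (40.2 ± 10.3 in controls), Smad4 (21.7 in controls and 23.5 ± 1.73 in EPR cKO) and Khsrp (16.4 ± 1.39 and 18.7 ± 1.93), all in CPM per kb. Below them lay Smad7 (12.8 ± 1.19 and 17.6 ± 2.41), Tgfbr2 (12.9 ± 0.957 and 11.3 ± 1.78), Smad3 (9.68 ± 0.835 and 10.7 ± 0.622) and Tgfbr1 (9.83 ± 0.376 and 9.80 ± 1.11). Smad2 (6.04 ± 0.394 and 6.72 ± 0.333) stood above Tgfb1 only. Between Cdkn1a and Smad4, Tgfbr1 and Smad2, and Smad2 and Tgfb1, the ranges over the 12 libraries did not overlap. The ranges of the other neighbours overlapped. The order was least settled for Smad7 and Tgfbr2 and for Smad3 and Tgfbr1. Smad7 was higher than Tgfbr2 in 2 of 6 EPR fl/fl libraries and in 8 of all 12. Smad3 was higher than Tgfbr1 in 2 of 6 EPR fl/fl libraries and in 6 of all 12. Tgfbr2 exceeded Smad3 in all 6 EPR fl/fl libraries, where their ranges did not overlap, and in 8 of all 12. Khsrp exceeded Smad7 in 10 of 12. Vim exceeded Cdkn1a in all 6 EPR fl/fl libraries and in 8 of 12 in all.

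**Figure D5:**
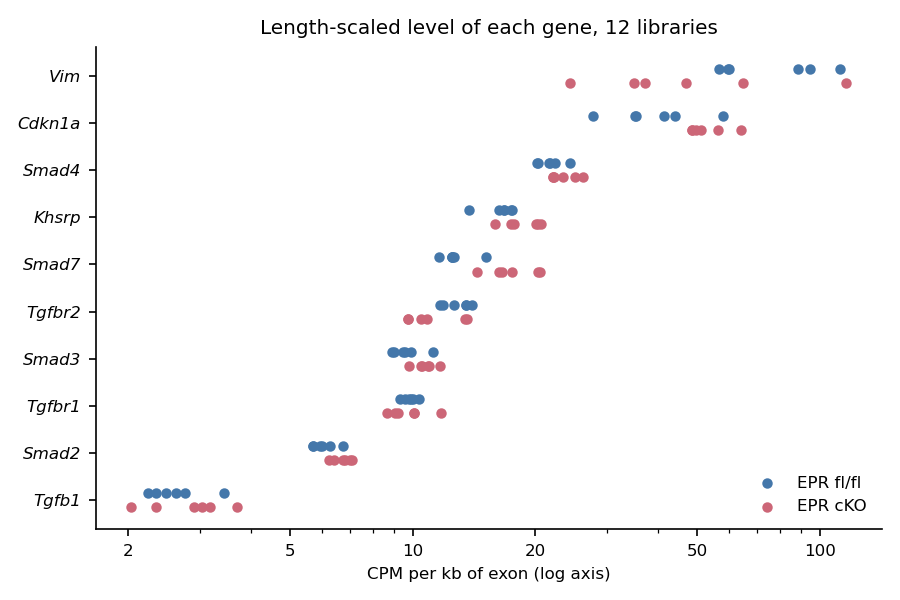
Level of each of the 10 genes in CPM per kb of exon (horizontal log axis) in the 6 EPR fl/fl (blue) and 6 EPR cKO (red) libraries, 1 point per library, genes in order of their mean. Vim has the widest spread, and the points of Smad2 lie above those of Tgfb1 in 12 of 12 libraries.

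For 9 of the 10 genes, the 3 tested genes with the most similar log2 CPM over the 12 libraries are given by Pearson's r, as a description of libraries that also share group, depth and tissue composition. Those of Vim were Emp3, Cmtm3 and Rspo3, with r of 0.98 to 0.99, closer than for the other 8. Those of Smad7 were Itga3, Srebf2 and Fam83h (each 0.91), and Fam83h was itself higher in EPR cKO (log2 fold change 0.43, adjusted p = 0.00947). Cdkn1a was closest to Ptp4a1 (0.92), Tsga10 and Pphln1 (both 0.91), and Khsrp to Gm37884 (0.92), Prrc2a and Scaf1 (both 0.90). Smad2 was closest to Ccdc137, Akr1b7 (both 0.85) and Ablim1 (0.84), Smad3 to Zfp236, Cdhr1 (both 0.90) and Rimbp2 (0.88), and Smad4 to 9930012K11Rik (0.90), Ulk3 (0.84) and Ceacam18 (0.83). The nearest to Tgfb1 were Arhgap17 (0.93), Gipc3 (0.90) and Mrtfa (0.89), and to Tgfbr1 Fbxo30 (0.95), Col4a5 (0.93) and Prkab2 (0.92). Among the 10 genes themselves, r ran from -0.37 (Smad2 and Tgfbr2) to 0.80 (Tgfbr2 and Vim), and that of Khsrp with Smad7 was 0.73.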

How the data were processed

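The authors made ribosomal RNA-depleted libraries from proximal colon (6 mice of each genotype), aligned the reads to mm10 with STAR 2.5.3a and used featureCounts with Ensembl gene models. The deposited values are raw counts per gene of 1 table, not normalized. The strand setting and the handling of reads with several alignments are not given in the sources used here. Groups came from the sample labels, and 0 columns were left without a sample. Where nothing in the labels states otherwise, p-values measure the spread between these libraries. No 2 libraries of a group agreed within sampling noise.

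The 10 genes, the lists and the tests were chosen with earlier results of these data known. In R 4.3.3, genes reaching a CPM of 1 in 4 or more libraries entered edgeR 4.0.16 (TMM scaling, quasi-likelihood F test, all 12 libraries, no covariate), with Benjamini-Hochberg adjustment over all 15952 tested genes and a threshold of 0.05. The SE is the absolute log2 fold change divided by the square root of F. Marker scores are the mean log2 CPM (prior count 2) of fixed lists (epithelium, goblet cells, fibroblasts, smooth muscle, endothelium, macrophages, T cells, B and plasma cells, enteric neurons and glia, adipocytes, proliferation), and differences of a gene from a score were tested by two-sided exact permutation over 924 assignments (smallest p 0.00216). Beside the 10 genes and EPR, each list has up to 2 genes named per direction with the largest change among those past the threshold, or the 2 with the smallest p where none passed, and each of the 10 genes its 3 nearest by correlation (those of Tgfbr2 are not reported here). Markers and listed genes given only as members of a list (Col1a1, Col3a1, Acta2, Tagln, Cdh1, Epcam, Krt8, Krt18, Krt19, Cldn3, Cldn7) have no values. Alternatives were DESeq2 size factors, total counts, no filter, filterByExpr, the DESeq2 1.42.0 Wald test, limma 3.58.1 voom without and with quality weights, the composition score as covariate, a replicate block, and each library left out. Promoter windows came from RefSeq (GRCm38.p6), where 7 of the 10 genes matched. Exons and coordinates are those of the deposited table. Fits were tested on simulated data.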

Additional observations from a re-analysis of the deposited data

Results flagged for a closer look

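In 6 of 82 sets of 6 libraries (1 gene or score in 1 group), 1 library lay far from the other 5 by Dixon's criterion, and chance gives about 4.1. Khsrp was 55.1 CPM in EPR fl/fl replicate 5, against 65.5 to 70.4 CPM in the others. Smad7 was 66.2 CPM in EPR fl/fl replicate 6, against 50.9 to 55.2 CPM, and without that library its log2 fold change was 0.52 (adjusted p = 0.0116, edgeR). EPR (Smim31) was 0.424 CPM in EPR cKO replicate 2, against 0 to 0.134 CPM. Smad9 was 6.66 CPM in EPR cKO replicate 1, against 1.44 to 2.93 CPM. The B and plasma cell score was 0.72 in EPR cKO replicate 1, against 1.94 to 2.59, and the proliferation score was 4.62 in EPR fl/fl replicate 3, against 5.17 to 5.48. The causes were not tested.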

How the results depend on the processing

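With all libraries 392 genes passed, 141 higher and 251 lower, 27 of them past the thresholds of the study (adjusted p under 0.001 and a minimum fold change). DESeq2 gave 913 (440 and 473, 77 past the study thresholds) and quality weights 3263 (1372 and 1891, 55 past them). The higher genes numbered 39 with total counts (beside 247 lower), 54 without a filter and 80 with the composition score. Of the 10 genes 0 passed with total counts, 0 without a filter and 3 with quality weights. Smad7 gave 0.43 with total counts (adjusted p = 0.0642) and 0.44 without a filter (adjusted p = 0.0574), its adjusted p over the 9 alternatives being 0.00142 to 0.0733. With quality weights Cdkn1a gave 0.42 (adjusted p = 0.0461) and Vim -0.84 (adjusted p = 0.0288). Of the list genes 4 passed, 2 with total counts, 8 with DESeq2, 45 with quality weights and 1 with the composition score. Tgfbr1 turned to 0.11 with the composition score. The difference of Vim from the fibroblast markers turned to 0.20 with the smooth muscle score in their place, and ran from -0.13 to 0.0014 with 1 library left out, above 0 without EPR cKO replicate 1. The causes were not tested.

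The labels do not say whether replicate numbers pair the libraries. Of the same-numbered pairs, 2 of 6 had correlated deviations over 0.1 (-0.24 to 0.34), and 2 of 6 EPR cKO libraries were closest to their own number. Values from so few pairs cannot decide the question, so the block is given as an alternative. With the replicate block 245 genes passed, 67 higher and 4 past the study thresholds, with 0 of the 10 genes (Smad7 0.46, adjusted p = 0.0733) and 2 list genes.

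Leaving out 1 library gave 176 (EPR fl/fl replicate 4) to 3451 genes (EPR cKO replicate 1), 28 (EPR cKO replicate 3) to 1178 higher, 145 to 2273 lower and 19 to 51 past the study thresholds. It gave 0 to 2 of the 10 genes and 1 to 43 list genes. The log2 fold change ran from 0.14 to 0.23 for Khsrp, 0.31 to 0.52 for Cdkn1a, 0.12 to 0.18 for Smad2, 0.12 to 0.19 for Smad3, 0.06 to 0.15 for Smad4, 0.41 to 0.52 for Smad7, 0.01 to 0.20 for Tgfb1, -0.079 to 0.027 for Tgfbr1, -0.26 to -0.15 for Tgfbr2 and -0.94 to -0.39 for Vim. The composition score differed by 1.15 between the groups (exact permutation p = 0.0628), and by 0.92 to 1.62 with 1 library left out. The highest value, 1.62, was that without EPR cKO replicate 1 (exact permutation p = 0.00216). Differences from marker scores that passed numbered 0 to 12.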
